A study of Mus musculus with 4 samples.

Results

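Butyrate, a short chain fatty acid made by fermentation of fibre, was followed here through 8 genes for enzymes of the apical membrane. They were *Alpi*, *Akp3* and *Alpl* (alkaline phosphatases), *Anpep* and *Enpep* (aminopeptidases), *Dpp4* (a dipeptidyl peptidase), and *Mep1a* and *Mep1b* (the α and β subunits of meprin). The set was fixed by symbol, and all 8 symbols were found among the 36144 gene names of the count table. RNA came from mouse colonic organoids at passage 3, either untreated or given 2 mM sodium butyrate, with 1 library for each of 4 conditions: untreated at 48 h, butyrate at 48 h, untreated at 72 h and butyrate at 72 h. The labels of the untreated libraries give day 2 and day 3. All cultures came from 1 male mouse aged 24 weeks and shared a stem cell medium with EGF, Noggin, R-spondin, CHIR99021 (a Wnt pathway activator) and Y-27632 (a ROCK inhibitor). The labels call this mouse wild type, whereas the study's legend names Hes1-GFP organoids. Crypts were taken from proximal colon. No condition was repeated, so that no difference at either time can be set against replicate error, and no test was run. Intervals are 95% intervals for counting error only.

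Brush border enzymes sit on the microvilli of absorptive cells, most as ectoenzymes that face the lumen. Alkaline phosphatases remove phosphate groups, including those of bacterial lipopolysaccharide, and alkaline phosphatase activity is a classical marker of butyrate-induced differentiation in intestinal cell lines. The peptidases trim luminal peptides and peptide hormones. Aminopeptidases take single residues from the N-terminus, with a preference for acidic residues in the case of *Enpep*. The product of *Dpp4* removes dipeptides that end in proline or alanine, and meprins cut within longer chains. In bulk RNA, fewer cells of a type and less RNA per cell cannot be told apart.

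Library totals lay between 20790225 and 24207840 counts, and a floor of 3 counts corresponded to between 0.124 and 0.144 CPM, the count scaled to the library total. Mitochondrial genes took between 14.1% and 18.4% of the counts. The labelled tissue was checked on 6 epithelial genes (*Epcam*, *Cdh1*, *Vil1*, *Krt8*, *Krt18* and *Krt19*), which summed to between 137079 and 151308 normalised counts per library. The 11 genes of immune, fibroblast and endothelial cells summed to between 95.1 and 126. Normalised counts are counts divided by DESeq2 size factors.

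The regions upstream of *Alpi*, *Enpep* and *Dpp4* are shown because these 3 genes had the widest ranges over the libraries among the well-counted members, the first pair with a like profile and *Dpp4* with a different one. Each sequence holds the 250 bases before the RefSeq start of the gene in GRCm38.p6, read 5′ to 3′ on the minus strand, from chr1:87101607-87101856 (*Alpi*), chr3:129332750-129332999 (*Enpep*) and chr2:62412232-62412481 (*Dpp4*). Capitals mark exact matches on either strand to 6 short motifs. The core promoter motif searched was TATAAA, known as the TATA box, and the motif GGGCGG is known as the GC box. Krüppel-like factors are known to bind the motif CACCC, and GATA factors the motif AGATAA. The letters searched for CDX factors were TTTATG, and those searched for HNF4 were CAAAGT. A match on the other strand reads as the reverse complement, so that the TATA box appears as TTTATA and the motif of Krüppel-like factors as GGGTG.
Alpi: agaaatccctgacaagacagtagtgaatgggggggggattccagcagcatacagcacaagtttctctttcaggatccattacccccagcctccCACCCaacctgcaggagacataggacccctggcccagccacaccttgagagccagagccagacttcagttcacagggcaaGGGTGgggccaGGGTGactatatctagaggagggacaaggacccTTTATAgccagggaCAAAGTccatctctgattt
Enpep: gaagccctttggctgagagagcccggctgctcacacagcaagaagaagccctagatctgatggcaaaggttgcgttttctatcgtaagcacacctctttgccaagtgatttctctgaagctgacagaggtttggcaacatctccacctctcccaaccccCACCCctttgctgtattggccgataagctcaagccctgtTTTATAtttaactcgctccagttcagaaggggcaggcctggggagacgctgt
Dpp4: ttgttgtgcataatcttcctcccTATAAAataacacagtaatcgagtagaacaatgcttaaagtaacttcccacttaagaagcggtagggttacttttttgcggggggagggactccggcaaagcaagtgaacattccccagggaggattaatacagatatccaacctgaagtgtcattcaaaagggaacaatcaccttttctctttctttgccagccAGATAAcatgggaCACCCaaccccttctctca

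In *Alpi*, TATAAA lay on the reverse strand 33 to 28 bases before the start and CAAAGT 19 to 14 bases before it. In *Enpep*, TATAAA lay on the reverse strand 52 to 47 bases before the start. *Dpp4* held AGATAA at 32 to 27 bases before the start, and its TATAAA was farther away, at 227 to 222 bases. The only match in *Mep1a* was CAAAGT, 29 to 24 bases before the RefSeq start, within the 39 bases of its window that GENCODE annotates as exon. Over the 8 upstream windows of 7 members (*Alpl* has a pair of starts, and *Mep1b* was not searched), CAAAGT was found in 5, against 12.6% of all 32851 RefSeq promoters. TATAAA was found in 4 (12.4% of all), CACCC in 7 (52.0%), GGGCGG in 2 (32.7%) and AGATAA in 1 (9.99%), whereas TTTATG was in 0 of the windows (10.8% of all). GGGCGG was found in *Anpep* and at the 5′-most start of *Alpl*, whose windows had a GC content of 72.8% and 68.4%, against a median of 52.4% over all promoters. The remaining windows had between 41.6% and 56.0%. These matches describe the sequence and do not show binding.

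Intestinal alkaline phosphatase RNA came almost wholly from *Alpi*, which was higher with butyrate at 48 h and lower at 72 h. *Alpi*, on the minus strand of chromosome 1 from 87098002 to 87101606, had 363 normalised counts in untreated and 539 in butyrate-treated organoids at 48 h, then 587 and 201 at 72 h. The butyrate library at 72 h was the lowest, and the counting intervals of the treated and untreated libraries did not overlap at either time. Those of the untreated library at 72 h and the butyrate library at 48 h did overlap. Its log2 change with butyrate was 0.57 (0.38 to 0.76) at 48 h, then −1.54 (−1.79 to −1.31) at 72 h, the latter a level 2.91-fold lower than untreated.

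Without butyrate, *Alpi* was higher at 72 h than at 48 h by 0.69 (0.50 to 0.89) on the log2 scale. With butyrate it changed by −1.42 (−1.67 to −1.18), so that the treated culture moved the other way. The change with butyrate at 72 h minus that at 48 h was −2.11 (−2.42 to −1.81).

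*Akp3*, the other intestinal-type alkaline phosphatase gene of the set, neighbours *Alpi* on chromosome 1 (87124973 to 87127912). It had 0 counts without and 1 with butyrate at 48 h, then 2 and 1 at 72 h. These are under the floor of 3 counts in every library, and no fold is given. Its share of the combined counts of *Alpi* and *Akp3* was at most 0.535%, seen as 1 of 187 counts in the butyrate library at 72 h (exact interval 0.0135% to 2.94%). In the untreated library at 48 h, 0 of 355 counts allows a share of up to 0.845% by the floor of 3 counts and up to 1.03% by the exact interval.

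Another gene of this cluster outside the set, *Alppl2* (chromosome 1, 87086694 to 87089928), had 5 and 17 counts at 48 h, then 12 and 3 at 72 h. Its count was thus highest in the butyrate library at 48 h and lowest in that at 72 h. Of the 2307 stretches of 31 bases in *Alpi* transcripts (31 bases is the default unit of kallisto), 7.07% also occur in transcripts of another gene, *Akp3* first. Reads from these stretches depend on how the pseudoalignment divided them.

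*Alpl*, the tissue-nonspecific alkaline phosphatase (chromosome 4, 137741733 to 137796384), stood out in a single library. It had 0 counts without and 36 with butyrate at 48 h, then 2 and 1 at 72 h. Only the butyrate library at 48 h was above the floor of 3 counts. Set against that floor in the untreated library, *Alpl* was at least 10.6-fold higher with butyrate at 48 h, a bound that leaves out the counting error of the 36 counts. With that error included, the exact interval of the pair of counts had a lower limit of 3.04 on the log2 scale, which is below that bound. Between the butyrate libraries its log2 change from 48 h to 72 h was −4.02 with a pseudocount of 1 and −2.63 with a pseudocount of 5 (counting interval −10.26 to −2.35), since the 72 h level is 1 count. In the butyrate library at 48 h, *Alpl* made up 5.71% (4.03% to 7.81%) of the counts of the 3 alkaline phosphatase genes, 36 of 631. None of its 31-base stretches occur in another gene.

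**Figure D1:**
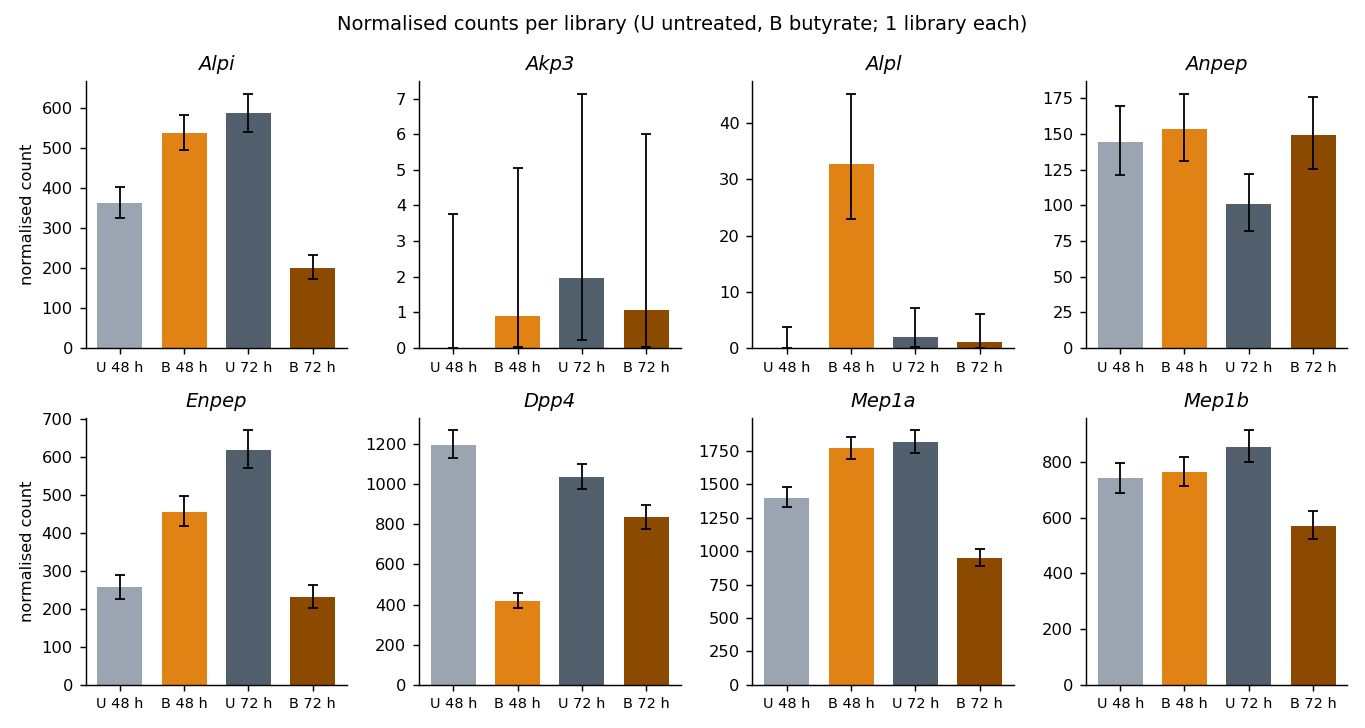
Normalised counts of the 8 genes (vertical axes, from 0) in each library (horizontal axes, U for untreated and B for butyrate, 1 library each). Bars are levels and lines are 95% Poisson intervals, which cover counting error only. *Alpi* and *Enpep* were highest in the untreated library at 72 h and lowest in the butyrate library at 72 h. For *Alpi*, the intervals of the untreated library at 72 h and the butyrate library at 48 h overlapped. For *Enpep*, those of the butyrate library at 72 h and the untreated library at 48 h overlapped. *Dpp4* was lowest with butyrate at 48 h, and *Alpl* was above 3 counts in 1 library.

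The aminopeptidase genes differed from each other. *Enpep*, which encodes glutamyl aminopeptidase and lies on chromosome 3 from 129269175 to 129332720, had 257 normalised counts in untreated and 456 in butyrate-treated organoids at 48 h, then 620 and 231 at 72 h. As for *Alpi*, the level with butyrate was the higher one at 48 h and the lower one at 72 h, without overlap of the counting intervals. The log2 change of *Enpep* was 0.83 (0.61 to 1.05) at 48 h, then −1.42 (−1.65 to −1.20) at 72 h. From 48 h to 72 h the untreated level changed by 1.27 (1.06 to 1.49) and the butyrate level by −0.98 (−1.22 to −0.75). The change with butyrate at 72 h minus that at 48 h was −2.25 (−2.57 to −1.94), the widest among the 6 well-counted members.

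*Anpep*, which encodes aminopeptidase N (chromosome 7, 79821803 to 79861059), had 144 and 153 normalised counts at 48 h, then 101 and 149 at 72 h. It was lowest in the untreated library at 72 h, whose interval overlapped that of the untreated library at 48 h and neither of the butyrate libraries. Its log2 change with butyrate was 0.09 at 48 h, with an interval of −0.24 to 0.42 that includes 0, and 0.56 (0.19 to 0.95) at 72 h. Of the 6 well-counted members, *Anpep* was the 1 that was higher with butyrate at 72 h.

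*Enpep* took 64.0% (59.1% to 68.8%) of the combined aminopeptidase counts in untreated and 74.9% (71.4% to 78.1%) in butyrate-treated organoids at 48 h. At 72 h its share was 86.0% (83.3% to 88.5%) untreated and 60.8% (55.5% to 65.9%) with butyrate. Butyrate thus came with a larger share of *Enpep* at 48 h and a smaller one at 72 h. These shares are taken within a library and do not depend on scaling between libraries.

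*Dpp4* had a pattern unlike the other members. This gene on chromosome 2 (62330073 to 62412231), whose product inactivates the L-cell hormone GLP-1, had 1197 normalised counts in untreated and 420 in butyrate-treated organoids at 48 h, then 1038 and 835 at 72 h. Both butyrate libraries were below both untreated libraries, and the lowest was that at 48 h. The log2 change was −1.51 (−1.67 to −1.35) at 48 h, a level 2.85-fold lower, and −0.31 (−0.45 to −0.18) at 72 h. From 48 h to 72 h the untreated level changed by −0.21 (−0.33 to −0.09) and the butyrate level by 0.99 (0.82 to 1.16). The change at 72 h minus that at 48 h was 1.20 (0.99 to 1.40), opposite in sign to those of *Alpi*, *Enpep* and the meprins. Of the 31-base stretches of *Dpp4*, 3.22% also occur in the transcripts of *Gm13561*.

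The meprin genes had smaller changes than *Alpi*. *Mep1a* (chromosome 17, 43474324 to 43502812) had 1401 normalised counts in untreated and 1771 in butyrate-treated organoids at 48 h, then 1819 and 952 at 72 h. The butyrate library at 72 h was the lowest, and the butyrate library at 48 h and the untreated library at 72 h overlapped in their intervals. Its log2 change was 0.34 (0.24 to 0.44) at 48 h, then −0.93 (−1.05 to −0.82) at 72 h. *Mep1b* (chromosome 18, 21061923 to 21100199) had 741 and 764 normalised counts at 48 h, then 854 and 571 at 72 h. At 48 h any difference was below what this depth can show, with a log2 change of 0.04 (−0.10 to 0.19), and at 72 h *Mep1b* changed by −0.58 (−0.74 to −0.42). Of its 31-base stretches, 2.63% occur in other genes.

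Meprin A is built from α and β subunits, and the β subunit anchors the complex in the membrane. *Mep1b* took 34.6% (32.6% to 36.7%) of the meprin counts in untreated and 30.1% (28.4% to 31.9%) in butyrate-treated organoids at 48 h. At 72 h its share was 32.0% (30.2% to 33.7%) untreated and 37.5% (35.0% to 40.1%) with butyrate. The share was lower with butyrate at 48 h and higher at 72 h, and the exact intervals did not overlap at either time.

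**Figure D2:**
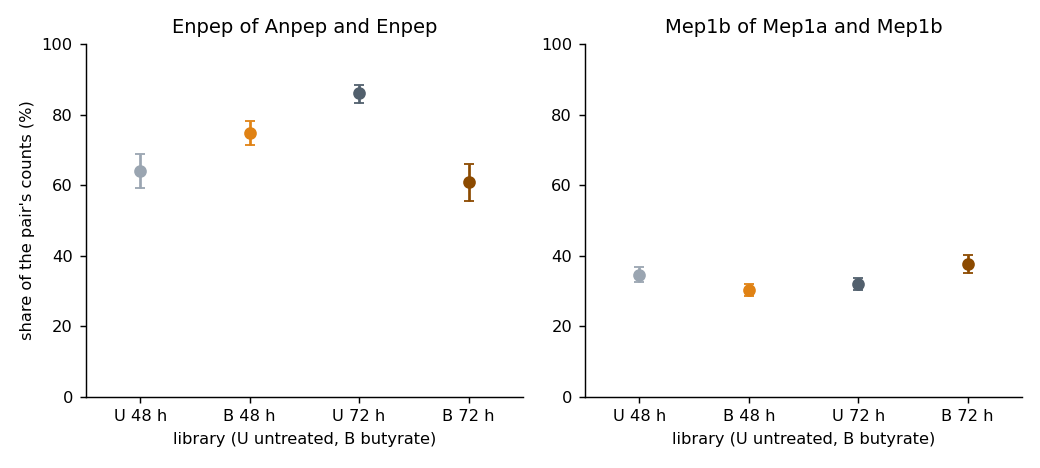
Share of *Enpep* in the counts of *Anpep* and *Enpep*, and of *Mep1b* in those of *Mep1a* and *Mep1b* (vertical axes, in %), in each library (horizontal axes, U for untreated and B for butyrate). Points are shares and bars are exact 95% intervals. The share of *Enpep* ranged from 60.8% to 86.0% and that of *Mep1b* from 30.1% to 37.5%.

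Of the 8 genes, 6 had a mean of at least 50 normalised counts over the 4 libraries and were set beside the 11652 genes that passed the same limit. *Akp3* and *Alpl* did not pass. At 48 h, 0 of these 6 were at least 2-fold higher with butyrate, where 3.93% of all genes were, and 1, *Dpp4*, was at least 2-fold lower, where 1.54% were. At 72 h, 0 of 6 were at least 2-fold higher (2.33% of all genes) and 2, *Alpi* and *Enpep*, at least 2-fold lower (1.60%). Between 48 h and 72 h in untreated organoids, *Enpep* was at least 2-fold higher (1 of 6, against 0.755% of all genes) and 0 were at least 2-fold lower (0.841%). In butyrate-treated organoids, 0 were at least 2-fold higher (1.66%) and *Alpi* was at least 2-fold lower (1 of 6, against 2.51%). *Enpep*, at −0.98, and *Dpp4*, at 0.99, were just short of 2-fold in this last comparison. The median log2 change of the 6 genes with butyrate was 0.21 at 48 h, with 5 higher and 1 lower, and −0.76 at 72 h, with 1 higher and 5 lower. Over all genes the medians were −0.03 and −0.00063. The comparisons share libraries and are not independent of each other.

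**Figure D3:**
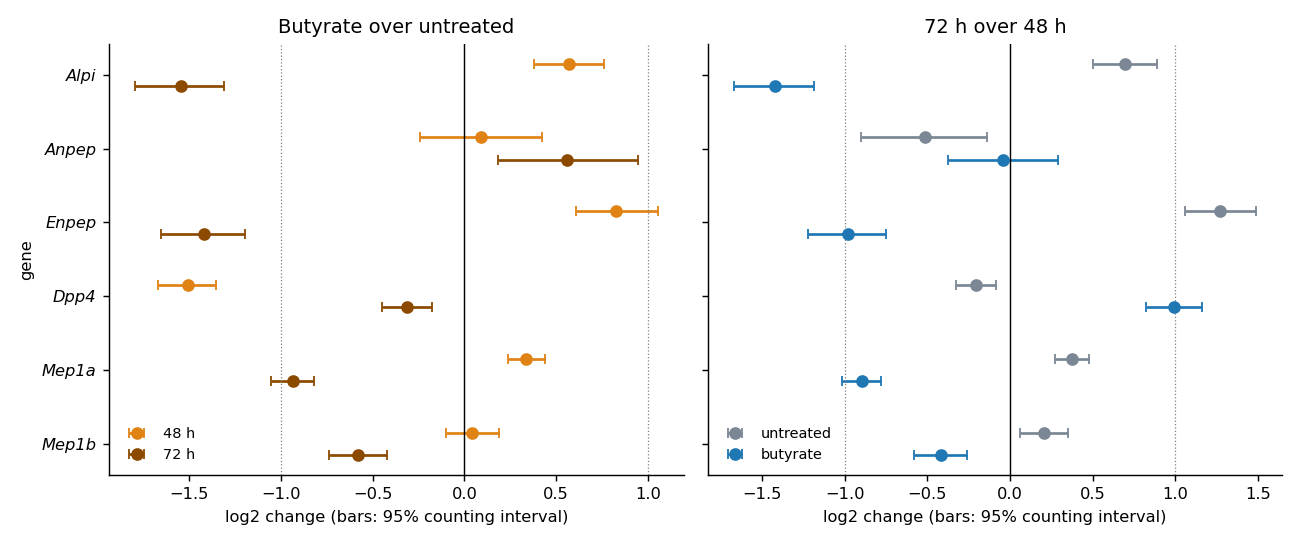
Log2 changes of the 6 members with a mean of at least 50 normalised counts (horizontal axes), for butyrate over untreated at 48 h and 72 h (left) and for 72 h over 48 h in untreated and butyrate-treated organoids (right). Points are changes, bars are 95% counting intervals and dotted lines mark 2-fold. *Alpi*, *Enpep* and *Mep1a* lie above 0 at 48 h and below 0 at 72 h, while *Dpp4* is at −1.51 and −0.31.

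**Figure D4:**
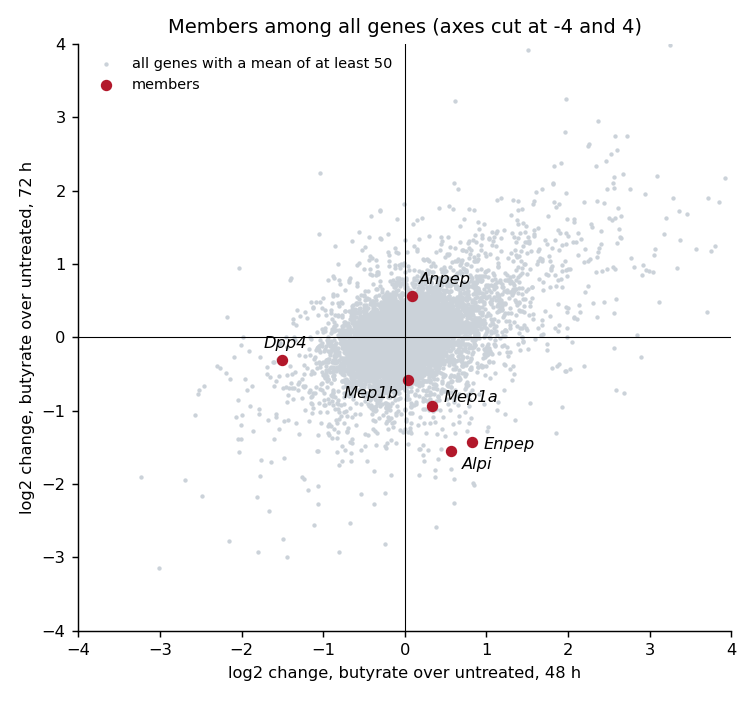
Log2 change with butyrate at 48 h (horizontal axis) and at 72 h (vertical axis) for the 11652 genes with a mean of at least 50 normalised counts (grey) and the 6 members among them (red); the most changed genes lie beyond the axes. *Alpi* (0.57, −1.54), *Enpep* (0.83, −1.42) and *Mep1a* (0.34, −0.93) lie at the lower right and *Dpp4* (−1.51, −0.31) at the lower left.

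Per kilobase of exon, the scale on which different genes can be compared, *Mep1a* had the highest level of the set in each library, from 276 normalised counts per kb with butyrate at 72 h to 527 untreated at 72 h. *Mep1b* came next, from 218 to 325. *Alpi* had 155 and 231 at 48 h, then 251 and 86.0 at 72 h. *Dpp4* had 189 and 66.5 at 48 h, then 164 and 132 at 72 h. *Alpi* thus ranked below *Dpp4* in the untreated library at 48 h and the butyrate library at 72 h, and above it in the other two. *Enpep* had between 49.1 and 132, and *Anpep* between 24.4 and 37.1, the lowest of the 6 in each library. Levels per kb were ranked among the 11623 genes with a mean of at least 50 normalised counts and an annotated exon length. The level of *Mep1a* was at or above that of between 67.8% and 82.7% of these genes. For *Alpi* it was between 31.1% and 64.3%, and for *Anpep* between 8.66% and 12.3%.

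Genes with the most similar profile were sought for the 3 members whose levels spanned at least 1 on the log2 scale, by Euclidean distance between log2 values centred on their mean over the 4 libraries. The closest of 11651 genes to *Alpi* were *Scin* (distance 0.17), which encodes an actin-severing protein, *Aoc1* (0.22), which encodes diamine oxidase, and *Gm49369* (0.23). *Scin* had 301 and 408 normalised counts at 48 h, then 511 and 177 at 72 h. *Mep1a* had rank 28 and *Enpep* rank 49 in closeness to *Alpi*, at distances of 0.47 and 0.55. Closest to *Enpep* were *Zfp433* (0.29), *Tmigd1* (0.31), an adhesion gene of the enterocyte brush border, and *Plscr4* (0.31). Closest to *Dpp4* were *Saa1* (0.11), *Ulk2* (0.17) and *Tarsl2* (0.17), while the other 5 well-counted members were between 1.22 and 1.87 away. With 4 points per profile, close matches are many, and reads of *Saa1* may be shared with near-identical *Saa* genes.

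Other hydrolases of the brush border included genes that moved as *Alpi* did and genes that did not. Of 18 such genes, 8 passed the limit on the mean. At 48 h, 2 of these were higher by at least 2-fold in treated organoids (3.93% of all genes) and 0 lower (1.54%), with a median log2 change of 0.25. At 72 h, 0 were at least 2-fold higher (2.33%) and 4 lower (1.60%), with a median of −0.94. *Sis*, which encodes sucrase-isomaltase, had 422 and 847 counts at 48 h, then 2357 and 543 at 72 h. It was highest in the untreated library at 72 h. *Alpi* was too, although its interval there overlapped that of the butyrate library at 48 h. The log2 changes of *Sis* were 0.83 (0.66 to 1.00) and −1.99 (−2.13 to −1.85). *Naaladl1*, another peptidase gene, had a log2 change of 1.89 (1.61 to 2.19) at 48 h and of 0.17 (−0.12 to 0.47) at 72 h. *Ace*, which encodes a peptidase that releases dipeptides from the C-terminus, had 1.24 (0.89 to 1.61) and 0.09 (−0.30 to 0.48).

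Of 17 genes of the same enzyme families as the members, 8 passed the limit, and 0 of these were 2-fold higher or lower with butyrate at either time. With 3.93% of all genes higher and 1.54% lower at 48 h, and 2.33% and 1.60% at 72 h, a count of 0 among 8 is near the background and is no result about these relatives. Their median log2 changes were −0.13 at 48 h and −0.01 at 72 h. *Bmp1*, an astacin like the meprins, had −0.69 and −0.23, *Erap1*, an aminopeptidase of the endoplasmic reticulum, −0.51 and −0.24, and *Npepps*, a cytosolic aminopeptidase, 0.14 and 0.31. *Dpp8*, a cytosolic relative of *Dpp4*, had 0.11 and 0.02.

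Among 8 carriers that take up amino acids and peptides, 4 passed the limit. *Slc3a1*, a subunit of the apical cystine and dibasic amino acid carrier, had 581 and 739 counts at 48 h, then 1310 and 325 at 72 h. Its log2 changes with butyrate were 0.17 (0.02 to 0.33) and −1.88 (−2.06 to −1.71). *Slc6a14*, a carrier of neutral and cationic amino acids, had 0.35 and −1.08. *Slc1a1*, a glutamate carrier, was higher at both times, by 2.60 (2.22 to 3.04) and 1.28 (0.88 to 1.73). *Slc36a1*, a carrier coupled to protons, had −0.04 and −0.36.

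The 10 genes for transcription factors known to act on brush border enzymes had a median log2 change of −0.01 at 48 h and of −0.34 at 72 h. At least 2-fold higher was 1 of the 10 at 48 h (3.93% of all genes) and 1 at 72 h (2.33%), each time *Gata4*. It had 23 and 98 counts at 48 h, 61 and 155 at 72 h, with log2 changes of 1.87 (1.25 to 2.64) and 1.46 (1.04 to 1.93). *Hnf4g* had −0.58 and −0.43, and *Klf4* −0.05 and −0.44.

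The median of the mature colonocyte markers, like *Alpi*, *Enpep* and *Mep1a*, was above 0 at 48 h and below 0 at 72 h, but not every marker was. All 8 markers passed the limit, and their summed normalised counts were 93792 at 48 h without butyrate and 101574 with it, then 125411 and 74061 at 72 h. At 48 h, 7 of 8 were higher and 3 of these at least 2-fold (3.93% of all genes), with a median log2 change of 0.65. At 72 h, 7 of 8 were lower, with a median of −0.44, and 0 by 2-fold, which is near the background of 1.60%. *Car4*, a carbonic anhydrase gene, had 1.87 and −0.39, *Slc26a3*, a chloride and bicarbonate exchanger gene, 1.29 and −0.20, the keratin gene *Krt20* 0.31 and −0.74, and the adhesion gene *Ceacam1* −0.68 and −0.80. Of markers named after their values were seen, *Ceacam20* was higher at both times, with 0.99 and 0.70, and the water channel gene *Aqp8* had 0.08 and −0.03 with intervals that include 0. At 48 h *Car1*, another carbonic anhydrase gene, went from 20390 to 44920 normalised counts and *Ceacam1* from 61945 to 38676, so that the sum rests on genes that moved in opposite directions. The 6 epithelial genes had medians of 0.01 and −0.16. Of the 11 genes of other cell types, between 5 and 6 were above 3 counts and between 2 and 4 were at 0 in each library, and the highest count of any was 48. The part of these cell types in the changes of the members was not tested.

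**Figure D5:**
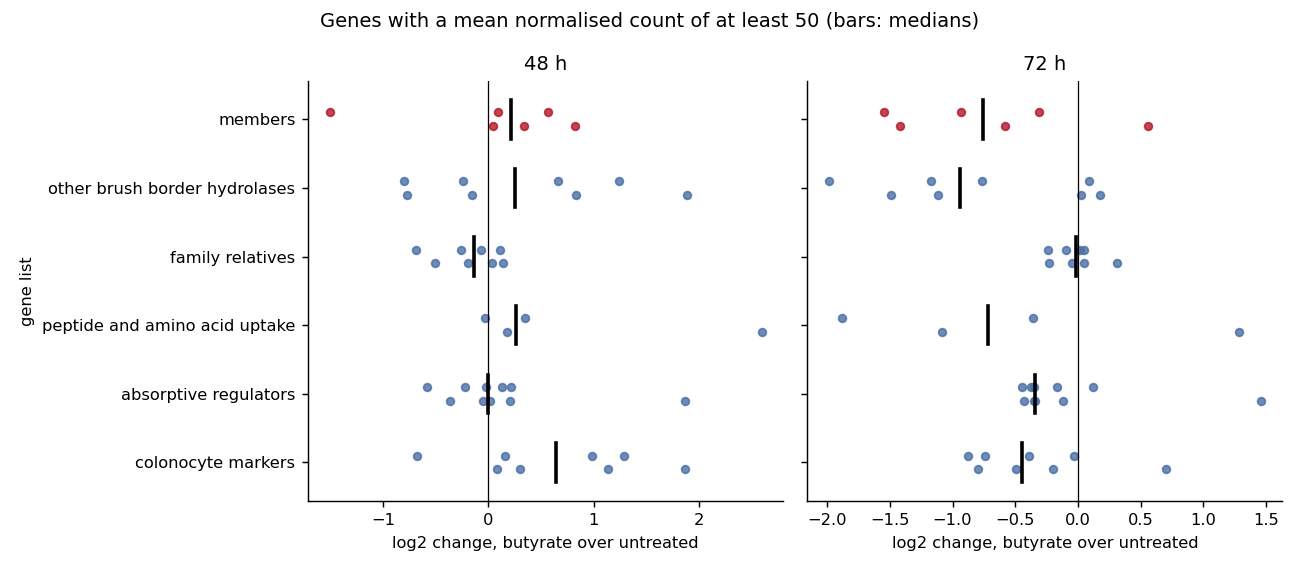
Log2 change with butyrate (horizontal axes) at 48 h (left) and 72 h (right) for each gene with a mean of at least 50 normalised counts in each list (vertical axis), with the members in red. Points are genes and black bars are medians. The medians of the members were 0.21 and −0.76, and those of the family relatives −0.13 and −0.01.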

How the data were processed

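Whole-number counts per gene were deposited by the authors for 4 bulk poly-A RNA-seq libraries. Per the labels, the submitters' processing notes name kallisto 0.44.0 and GRCm38.p6, so that the counts are rounded estimates, without normalisation. Strand handling and the annotation release are not given in the sources used here.

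DESeq2 1.42.0 size factors were computed in R 4.3.3 over the 13979 genes that exceeded 10 counts in 2 libraries or more, as in the study's methods. Log2 changes used a pseudocount of 1, and their exact Clopper-Pearson intervals (95%) used none. The intervals of the change at 72 h minus that at 48 h are not exact. They are normal approximations on the log scale from the 4 counts, also without a pseudocount. The sources name no molecular identifiers, so reads may not be independent molecules. Positions and exon lengths came from GENCODE (GRCm38) and upstream sequences from RefSeq (GRCm38.p6), where 7 of 8 members were searched. Scripts (Python 3.11.15, numpy 2.4.6, pandas 2.3.3, scipy 1.17.1, matplotlib 3.10.9) were tested on simulated data. Alternatives were TMM factors (edgeR 4.0.16), scaling to the total count, a pseudocount of 5, thinning to the smallest library (100 draws), other filters and the longest transcript's length. Named were all members, the 2 genes at each end of each list by their larger change, *Alppl2*, and the 3 closest profiles for members with a log2 range of at least 1, except that some items are not reported here. Members and lists were chosen with earlier results of these data known.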

Additional observations from a re-analysis of the deposited data

Results flagged for a closer look

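The changes with butyrate of 4 members had opposite signs at 48 h and 72 h. On the log2 scale, the change at 72 h minus that at 48 h was −2.11 for *Alpi*, −2.25 for *Enpep*, −1.27 for *Mep1a* and −0.62 for *Mep1b*. For *Mep1b* the 48 h change of 0.04 had a counting interval that included 0 (−0.10 to 0.19). With 1 library per condition the difference between the time points was not tested, and exposure time cannot be told apart from differences between single cultures.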

How the results depend on the processing

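All 100 recomputed changes of single members, under TMM factors, scaling to the total count, a pseudocount of 5 and thinning, were within their counting intervals, and 0 changed sign. Scaling to the total count moved the median of all genes by 0.05 at 72 h and by −0.08 between the untreated libraries. With it, 2 members instead of 1 were at least 2-fold lower at 72 h than at 48 h in butyrate-treated organoids. Without a filter on low counts, *Akp3* and *Alpl* entered. Then 1 member was at least 2-fold higher with butyrate at 48 h. Over time, 3 were at least 2-fold higher in untreated organoids and 2 at least 2-fold lower with butyrate. The shares of all genes under total-count scaling or without a filter were not computed, so these counts are no result about the members. Of the 3, *Akp3* and *Alpl* each went from 0 to 2 counts, under the floor of 3 counts, and no fold is given for them. The median change of the members became 0.45 at 48 h, −0.55 at 72 h and 0.53 over time untreated, since these genes of few counts were added. Depth limits *Akp3* in all 4 libraries and *Alpl* in 3 of 4. With 1 library per condition there are no replicate numbers to pair by and no replicate to leave out. The libraries form a treated and untreated pair at each time, but a fit of treatment with time as a block, which would take the difference between the time points as error, was not run.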

Other observations

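Some genes too low for the limit on the mean are given here, named after their values were seen. *Plb1*, which encodes a membrane phospholipase B of the brush border, had 4 counts without and 109 with butyrate at 48 h, then 3 and 48 at 72 h. Its log2 change was 4.29 (3.20 to 6.50) at 48 h, then 3.74 (2.50 to 6.46) at 72 h. *Slc15a1*, the apical carrier of short peptides, had 51 and 19 counts at 48 h, then 30 and 14 at 72 h, with log2 changes of −1.54 and −0.93. The neutral amino acid carrier gene *Slc6a19* had 34 and 31 counts at 48 h, then 48 and 8 at 72 h.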
